A study of Mus musculus with 2 samples.

Results

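The collagen genes are the genes of the mouse genome that encode the chains of the collagens, and they were taken here by name alone, as every symbol made of Col, a number, the letter a and a number. This gave 44 of the 32285 genes listed for each library. UMIs (unique molecular identifiers, each marking 1 captured RNA molecule) of 41 of them were found in the cells of skin and of 38 in those of the preputial gland (PG). The genes were followed through single cells of 2 tissues of male C57BL/6 mice aged 52 weeks: back skin, and the PG, a paired gland of lipid-rich secretion used as a model of skin sebaceous glands. For each tissue the cells of 3 mice had been pooled into 1 droplet library, so there was 1 library per tissue and no replicate, no test between tissues was possible, and tissue and library cannot be told apart. All 95% intervals given below cover counting error only.

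Collagens are proteins whose chains wind around each other into a helix, and chains of different genes join in fixed combinations. Types I, III and V build the fibrils that give the dermis its strength, type VI forms beaded filaments around cells, and type IV forms the sheet-like network of the basement membrane under epithelia and around vessels and muscle. In skin, fibroblasts are the known source of the fibrils, while the keratinocytes that rest on the basement membrane carry type XVII in their hemidesmosomes and secrete type VII, which anchors that membrane to the dermis.

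Barcodes with 500 or more genes and 1000 or more UMIs, of which no more than 10% were mitochondrial, were taken as cells. There were 8899 in skin, with 2386 UMIs in the median cell, and 4699 in PG, with 2729. Cells were placed in a class by marker genes that include no collagen: a cell needed at least 4 detected markers of its class and at least 2 more than of any other class. In skin this gave 922 fibroblasts, 21 contractile cells, 68 endothelial cells and 7094 epithelial cells, and in PG 574, 27, 46 and 3639. The median cell held 6 of 10 fibroblast markers in fibroblasts of both libraries, and in each of the 4 classes the median cell held at most 1 marker of any other of the 4 or of immune cells. Epithelial cells were divided further by markers into basal keratinocytes (3085 in skin and 1511 in PG), suprabasal keratinocytes (1340 and 94), hair follicle matrix cells (416, in skin only) and sebocytes (15 and 680). Many epithelial cells of both libraries met none of these subclasses and counted only in the whole epithelial class. No cell barcode was shared between the libraries, but their barcode lists differed in length (6794880 in skin and 737280 in PG), so tissue cannot be told apart from any difference in how the libraries were prepared.

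Levels are given as CPM, the UMIs of a gene per 1000000 UMIs summed over the cells of a class. A UMI counts a molecule once whatever its length, so CPM is comparable between genes without a correction for length. Of the 44 genes, 32 had at least 10 UMIs over the 4 classes in either library and are described here. The other 12 were Col2a1, Col6a4, Col9a1, Col9a2, Col10a1, Col11a2, Col19a1, Col22a1, Col24a1, Col25a1, Col26a1 and Col28a1, several of them collagens of cartilage, and none of them exceeded 9 UMIs in either library. Col9a1 and Col22a1 had no UMI in a kept cell of either library.

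Fibroblasts were the leading source. They were 10.4% of the skin cells and held 54.8% of all collagen UMIs (95% interval 54.4 to 55.1%), and in PG they were 12.2% of the cells and held 67.3% (66.6 to 68.0%). Collagens took 2.34% of all fibroblast UMIs in skin and 1.31% in PG. In skin the share was 0.811% in contractile cells, 0.124% in epithelial cells and 0.089% in endothelial cells, and in PG it was 0.392%, 0.0308% and 0.295%. Epithelial cells made up 79.7% of skin cells and 77.4% of PG cells, and held 37.6% and 24.6% of the collagen UMIs. These shares depended on the depth asked of a cell: with at least 1000 genes and 2000 UMIs, PG fibroblasts held 43.6% and PG epithelial cells 49.5%. With clusters in place of the markers PG epithelial cells held 12.8%. Several PG clusters, among them the largest with 836 cells, met no class and counted only in the total.

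Of the 30 collagen genes with at least 10 UMIs over the 4 skin classes, 18 (60%) had their highest CPM in fibroblasts, whereas 20.9% of all genes did. In PG it was 18 of 29 genes (62.1%), against 19.1% of all genes. The interval of the highest class lay apart from those of all other classes for 8 of these 18 genes in skin and 10 of 18 in PG. Of the 27 genes that could be ranked in both libraries, 21 were highest in the same class. The counts of separate intervals and of a shared class were made for collagens only, so no background over all genes can be set beside them. Col7a1 and Col17a1 were highest in epithelial cells and Col18a1 in contractile cells of both libraries, and Col15a1 was highest in endothelial cells of both. The interval of the highest class lay apart from all others in both libraries for Col17a1 and in skin only for Col18a1. For Col7a1 and Col15a1 it did so in neither.

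**Figure D1:**
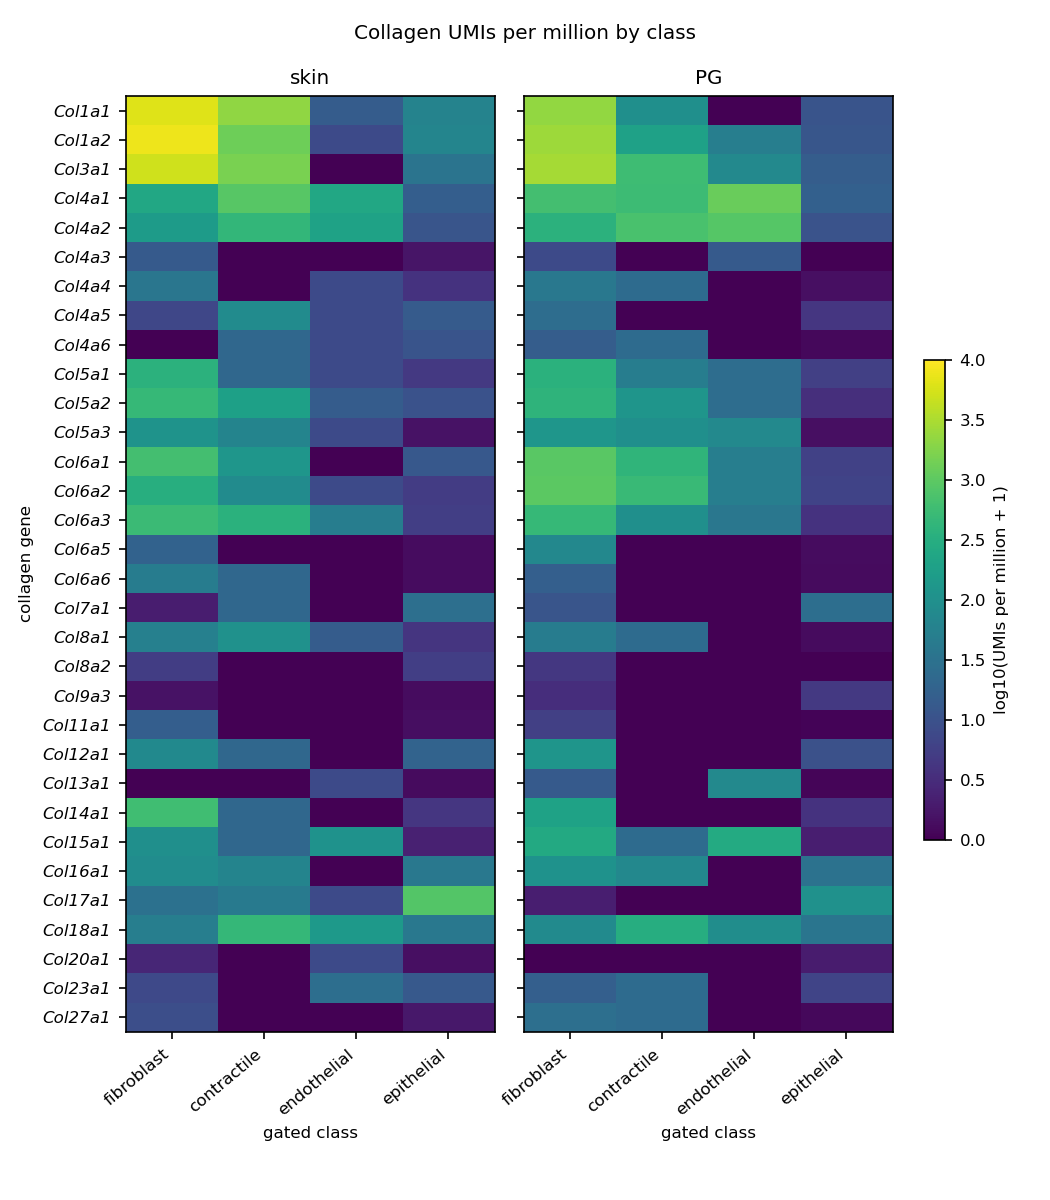
Level of the 32 described collagen genes (rows) in fibroblasts, contractile, endothelial and epithelial cells (columns) of skin and PG, as log10 of CPM plus 1. The fibroblast columns are brightest for Col1a1, Col1a2 and Col3a1, Col17a1 is brightest in the epithelial columns, and Col4a1 and Col4a2 are bright in contractile cells and, in PG, in endothelial cells.

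The fibril-forming collagens dominated the fibroblasts. Col1a1 and Col1a2, which encode the chains of type I, stood at 6353 and 8034 CPM in skin and at 2209 and 2554 CPM in PG. Col3a1, which encodes type III, stood at 5053 CPM in skin and 2915 CPM in PG. Col1a1 was 2.88-fold higher in skin (log2 ratio of PG over skin -1.52, 95% interval -1.59 to -1.45) and Col1a2 3.15-fold (log2 ratio -1.65, -1.72 to -1.59). Col3a1 was 1.73-fold higher in skin. On GRCm38, Col1a1 lies on chromosome 11 from 94936224 to 94953042, Col1a2 on chromosome 6 from 4504814 to 4541544 and Col3a1 on chromosome 1 from 45311538 to 45349706, all on the plus strand. The type V chains, which regulate fibril diameter, differed less: Col5a1 was at 368 CPM in skin and 354 in PG, Col5a2 at 482 and 393, and Col5a3 at 114 and 127. The intervals of the Col5a1 and Col5a3 ratios included equality (log2 -0.25 to 0.14 and -0.18 to 0.51).

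The bases before the RefSeq start site of Col3a1 are shown as the promoter of a leading fibroblast collagen. They are read 5′ to 3′ from build GRCm38 (mm10) and lie in no exon of the GENCODE annotation, and capitals mark the letters TATAAA, searched on the given strand.
Col3a1, plus strand, chr1:45311418-45311537: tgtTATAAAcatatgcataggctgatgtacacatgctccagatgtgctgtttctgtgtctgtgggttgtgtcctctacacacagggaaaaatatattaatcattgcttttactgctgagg
Over the 250 bases before each RefSeq start, exons of other transcripts included, 35 of the 44 collagen genes could be matched. The letters TATAAA occurred for 5 of these 35 genes (Col3a1, Col10a1, Col11a2, Col13a1 and Col17a1) and in 7.59% of all 32851 windows. The letters CCAAT, searched on both strands, occurred for 13 of the 35 genes (37.1%) and in 33.8% of all windows. The letters GGGCGG, also searched on both strands, occurred for 21 of the 35 genes (60%) and in 32.7% of all windows. A gene with several windows counted if any of them held the letters, while the background counts single windows, so the shares are not of like units. A match to such letters describes the sequence and is not evidence of a bound site. Neither type I gene is shown, since no window of Col1a1 was given and the bases before the start of Col1a2 overlap annotated exons.

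Across all collagen genes tested in fibroblasts, a gene was called past 2-fold when its ratio was at least 2 in either direction and its interval excluded equality, among genes with at least 10 UMIs over both libraries. Of 30 genes, 10 were past 2-fold toward PG, against a background of 9.31% of all 10725 genes tested, and 6 were past 2-fold toward skin, against 7.22%. The median log2 ratio of the collagen genes with UMIs in both libraries was 0.15 and that of all genes 0.01.

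The type IV chains were among those higher in PG fibroblasts. Of the 6 type IV genes, 4 were past 2-fold toward PG and none toward skin. Col4a1 was at 251 CPM in skin and 644 CPM in PG (log2 1.36, 1.18 to 1.54) and its partner chain Col4a2 at 153 and 370 CPM (log2 1.27, 1.04 to 1.51). Col4a5 was at 6.03 and 25.5 CPM. Col4a6 had no UMI in skin fibroblasts and 12 UMIs in PG fibroblasts. With skin set at the limit of 3 UMIs over the class, Col4a6 was 8.45-fold higher in PG, which leaves out the counting error of the 12. Col4a3 and Col4a4, whose chains work with that of Col4a5 in the kidney and other special basement membranes, were not past 2-fold (12.6 and 6.95 CPM for Col4a3, 35.7 and 39.4 CPM for Col4a4).

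The type VI chains differed in direction. Col6a1 was at 629 CPM in skin and 952 CPM in PG, Col6a2 at 321 and 989 CPM, and Col6a3 at 540 and 476 CPM. Only Col6a2 of these 3 was past 2-fold (log2 1.62, 1.47 to 1.78). There were 0.511 Col6a2 UMIs per Col6a1 UMI in skin fibroblasts (95% interval 0.462 to 0.565) and 1.04 in PG fibroblasts (0.943 to 1.14). The same ratio was 0.363 and 1.09 in epithelial cells and 0.496 and 0.942 in the free RNA of barcodes with at most 100 UMIs, with intervals that met only in the free RNA (0.366 to 0.667 and 0.661 to 1.34). Tissue and library cannot be told apart here. Of the rarer type VI chains, Col6a5 was higher in PG (17 and 71.8 CPM, log2 2.08, 1.43 to 2.75) and Col6a6 in skin (46.1 and 15.1 CPM, log2 -1.61, -2.58 to -0.76).

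Among the collagens that associate with fibrils or basement membranes, Col14a1, a fibril-associated collagen, was higher in skin fibroblasts (589 and 199 CPM, log2 -1.56, -1.81 to -1.33). Col12a1, of the same family, was at 79.5 CPM in skin and 120 CPM in PG, and Col16a1 was at 87.8 and 110 CPM, neither past 2-fold. Col15a1, which lies beside basement membranes, was higher in PG (98.7 and 265 CPM, log2 1.43, 1.14 to 1.72), while Col18a1, whose end fragment is endostatin, was at 51.0 and 82.2 CPM. Col27a1 was at 8.23 and 27.8 CPM and Col11a1 at 14.8 and 4.63 CPM, on 15 and 24 and on 27 and 4 UMIs. Col7a1 (2 and 9 UMIs) and Col13a1 (0 and 11 UMIs) were also called toward PG, and Col17a1 (55 and 1 UMIs) toward skin. Col17a1 of skin fibroblasts was at 30.2 CPM, 10% of what the free RNA of that library showed, and the keratinocyte genes Krt15, Krtdap, Krt1 and Krt77 stood at 10.5, 11.2, 4.95 and 3.84% of theirs in the same cells.

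**Figure D2:**
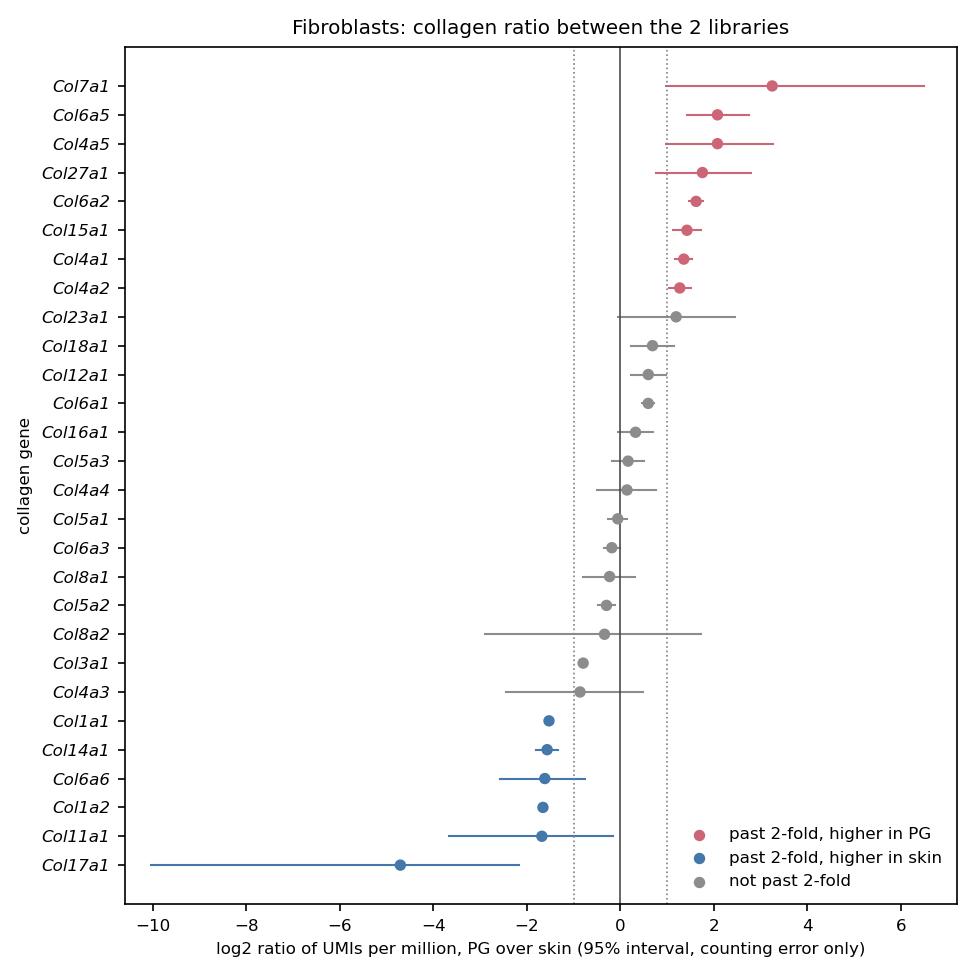
Log2 ratio of CPM in fibroblasts, PG over skin, for the 28 collagen genes with at least 10 UMIs and UMIs in both libraries. Points are ratios, lines are 95% intervals of counting error, dotted lines mark 2-fold, and Col1a1, Col1a2 and Col14a1 sit left of them while Col4a1, Col4a2, Col6a2 and Col15a1 sit right.

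Col1a1 UMIs were unevenly spread over the fibroblasts. The median fibroblast had 1558 CPM of Col1a1 in skin and 1179 CPM in PG, a ratio of 1.32, beside 2.88 for the summed cells. For Col1a2 the medians were 3669 and 1911 CPM (1.92-fold) and for Col3a1 1963 and 1602 CPM (1.23-fold). The tenth of the cells with the most Col1a1 UMIs held 71.9% of them in skin and 49.0% in PG. Collagens took 1.03% of the UMIs of the median skin fibroblast and 0.908% of the median PG fibroblast. At the 90th percentile the shares were 4.83 and 2.77%, and the highest cells had 31.4 and 7.75%.

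Fibroblasts were grouped by all genes but the collagens and mitochondrial genes, for each library on its own, into 6 subclusters in skin and 8 in PG. The subclusters are called here by number and leading genes and were not given names. Skin subcluster 6, of 22 cells led by Cpz, Cldn10, Ndufa4l2, Sulf2 and Sparc, had 60566 CPM of Col1a1, 56731 CPM of Col1a2 and 26418 CPM of Col3a1, and collagens took 11.9% of the UMIs of its median cell. Although it was 2.39% of the fibroblasts it held 17.6% of their collagen UMIs. Its cells were poor in Col14a1 (19.6 CPM, 1 UMI). Col6a1 was at 274 CPM on 14 UMIs, above the 200 CPM of skin subcluster 3.

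Skin subcluster 4, of 148 cells led by Acta2 and Tagln, which encode contractile proteins, and by Ednrb, Adamts4 and Lrrc15, had 14887 CPM of Col1a1 and 15354 CPM of Col1a2. Collagens took 4.19% of its summed UMIs but 1.56% of those of its median cell. The median cell of skin subcluster 1 had 1.85%. Those of PG subclusters 4 and 7 had 1.95 and 2.14%, and those of the other PG subclusters at most 1.29%. Skin subcluster 4 also held 26 of the 27 UMIs of Col11a1, a minor fibril chain, found in skin fibroblasts. In the remaining skin subclusters Col1a1 ran from 1190 to 4441 CPM. Subclusters 2 and 3 had 736 and 697 CPM of Col14a1 and no UMI of Col15a1, whereas subcluster 1 had 225 CPM of Col15a1 and 1090 CPM of Col6a3. Hair keratin and keratin-associated genes were among the leading genes of subcluster 1, and its median cell held 1 of the epithelial markers, as in the other skin subclusters. None of these hair genes is an epithelial marker, so that count cannot show whether RNA of hair cells was present.

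In PG no subcluster reached the summed Col1a1 level of skin subcluster 4 or 6. The highest, subcluster 4 with 63 cells led by genes that include Spp1 and Timp1, had 5108 CPM of Col1a1, 1995 CPM of Col6a2 and 534 CPM of Col12a1. Subcluster 3, led by Fgf10 and Rspo3, which encode secreted growth signals, had 1116 CPM of Col4a1 and 771 CPM of Col15a1. Subcluster 7, of 40 cells led by Cd74 and heat-shock genes, had the highest level of Col4a1 (1982 CPM) and of Col3a1 (6734 CPM). Subclusters 1 and 5 were low in Col4a1 (146 and 63.4 CPM) and high in Col14a1 (311 and 609 CPM). Subcluster 8, of 18 cells, held a median of 5 epithelial markers, and its part in the PG values was not tested.

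Without skin subcluster 6, the log2 ratio of PG over skin was -1.12 for Col1a1 and -1.38 for Col1a2. Without subclusters 4 and 6, it was -0.28 and -0.91, neither past 2-fold. These are the skin subclusters with the most Col1a1 and none was left out of PG, so that a smaller excess of skin follows from the choice. When PG subcluster 4, that library's highest in Col1a1, was left out as well, the ratios were -0.63 and -1.12, and Col1a2 was again past 2-fold. In this last setting the ratio was -1.54 for Col14a1, 1.34 for Col4a1, 1.28 for Col15a1 and 1.38 for Col6a2, and 14 of 27 collagen genes were past 2-fold in either direction, against 15.9% of all genes. All 3 settings were chosen after the subclusters had been seen. Among cells with at least 1000 genes and 2000 UMIs the Col1a1 ratio was -0.90, also short of 2-fold.

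**Figure D3:**
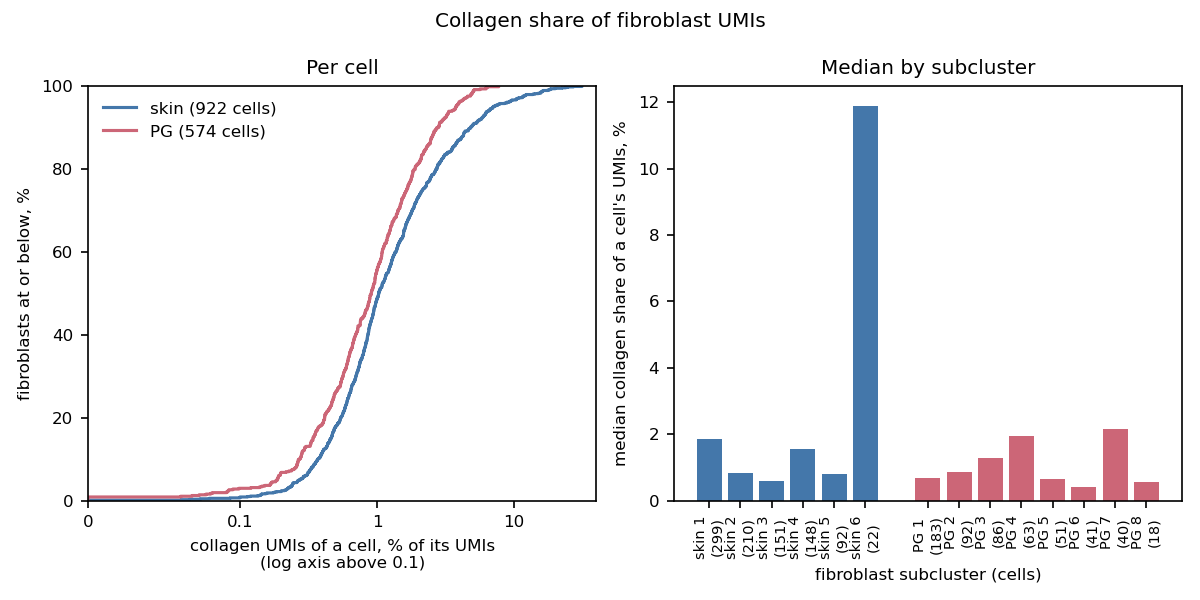
Left, percent of fibroblasts (vertical axis) with at most a given collagen share of their UMIs (horizontal axis, log above 0.1%) in skin and PG. Right, median collagen share per subcluster with its number of cells, where skin subcluster 6 stands at 11.9% and all PG subclusters lie at or below 2.14%.

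Cells of a library also differed in which collagens they held together. With every fibroblast thinned to 1000 UMIs, Col1a1 and Col1a2 had a Pearson correlation across cells of 0.76 in 922 skin cells and 0.49 in 574 PG cells, and Col1a1 and Col3a1 of 0.75 and 0.53. Col4a1 and Col4a2 reached 0.28 and 0.49. Col1a1 and Col14a1 were at -0.05 and -0.08, the only pair of the 10 examined with a negative value in both libraries. These cells share 1 library and its capture, so the values are descriptions. In a separate draw of 1000 UMIs per cell, the share of fibroblasts with a Col1a1 UMI was 71.1% in skin and 68.6% in PG. For Col14a1 it was 40.3 and 14.8%, for Col4a1 18.4 and 31.4%, and for Col15a1 7.59 and 17.4%. Without thinning, the shares were 83.0 and 77.9% for Col1a1, 56.3 and 20.2% for Col14a1, 27.7 and 37.8% for Col4a1, and 13% and 22.5% for Col15a1. In immune cells, which should lack Col1a1, the thinned share was 0.498% in skin and 0.562% in PG, and it was at most 1.12% for the other 3 genes. The median depth was 1834 and 1333 UMIs in fibroblasts and 1806 and 1793 UMIs in immune cells.

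The genes that modify, bind and break down collagens are described by lists chosen for those roles. Of 28 genes of collagen modification and processing, 25 could be tested in fibroblasts, 4 were past 2-fold toward PG and 1 toward skin, beside the background of 9.31 and 7.22% given above, and the median log2 ratio was 0.21. Those toward PG were Plod1 (43.9 and 115 CPM) and Plod3 (24.7 and 56.8 CPM), which hydroxylate lysines, Crtap (75.2 and 269 CPM), part of a complex that modifies prolines, and Adamts14 (3.29 and 13.9 CPM), which removes the propeptide. P4ha2, a subunit of the enzyme that hydroxylates prolines, was the call toward skin (71.3 and 34.8 CPM). Serpinh1, the collagen chaperone, was at 744 and 568 CPM, a log2 ratio of -0.39 (-0.54 to -0.24).

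Of 8 collagen receptor genes 7 were tested, and Ddr1 (10.4 and 24.3 CPM) and Itga1 (7.13 and 23.2 CPM) were past 2-fold toward PG and none toward skin, against the same 9.31 and 7.22% of all genes, with a median log2 ratio of -0.34. The main fibroblast receptor for fibrils, Ddr2, was at 392 and 309 CPM. Of 13 turnover genes 11 were tested and 4 were past 2-fold toward PG and none toward skin, beside the same 9.31 and 7.22%, with a median log2 ratio of 0.65. These were the metalloproteinase genes Mmp3 (375 and 863 CPM), Mmp9 (1 and 9 UMIs) and Mmp13 (0 and 10 UMIs), and Timp1, an inhibitor of them (56.0 and 395 CPM, log2 2.82, 2.50 to 3.15). Mmp2 and Mmp14 were at 766 and 1043 CPM and at 290 and 462 CPM. The processing genes were highest in fibroblasts of the 4 classes for 22 of 27 genes in skin and 21 of 26 in PG, the receptors for 4 of 8 and 4 of 7, and the turnover genes for 8 of 12 and 9 of 12, beside 20.9% of all genes in skin and 19.1% in PG.

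In endothelial cells, which lie on a basement membrane of their own, type IV led. Col4a1 was at 253 CPM in skin and 1222 CPM in PG, a log2 ratio of 2.27 (1.71 to 2.86) on 37 and 96 UMIs, and Col4a2 was at 198 and 878 CPM, a log2 ratio of 2.15 (1.5 to 2.82). There were 0.784 Col4a2 UMIs per Col4a1 UMI in skin and 0.719 in PG. Col15a1 was higher in PG as well (109 and 280 CPM, log2 1.35, 0.36 to 2.38), while Col18a1 was at 144 and 89.1 CPM with an interval that included equality. Of 5 collagen genes tested, 3 were past 2-fold toward PG, against 9.09% of 3607 genes, and none toward skin, against 5.63%. After thinning, 60.9% of 46 PG cells and 23.5% of 68 skin cells had a Col4a1 UMI, and unthinned 65.2 and 36.8%. Of immune cells, 0.498% had a UMI in skin and 0 of 178 in PG, which allows a share of up to 1.69% of cells with a UMI and sets no limit on cells that express the gene. With no minimum on UMIs, 7 of 22 collagen genes were past 2-fold in either direction, against 6.14% of all genes. The endothelial class was not divided by vessel type. Most of the 10 genes that led it over the other cells of its library differed between skin and PG. Whether the endothelial cells compared were of like kinds was not tested.

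The genes Col4a1 and Col4a2 lie head to head. On build GRCm38, their RefSeq start sites are on chromosome 8 at 11312826 (Col4a1, minus strand) and 11312805 (Col4a2, plus strand), 21 bases apart, with their first bases overlapping. Col4a5 and Col4a6 are arranged in a like way on the X chromosome, with 1343 bases between their starts. UMIs of Col4a2 per UMI of Col4a1 were 0.609 in skin fibroblasts (0.523 to 0.708) and 0.574 in PG fibroblasts (0.498 to 0.660), 0.651 and 0.633 in basal keratinocytes, and 0.638 and 0.613 in all kept cells. In contractile cells the ratio was 0.477 in skin (0.270 to 0.820) and 1.26 in PG (0.704 to 2.28), on 21 and 29 Col4a2 UMIs, 11 of the 21 in 1 cell. Over 10 points (5 cell groups in each of the 2 libraries), the gene whose level was most like that of Col4a1 among 10670 genes was Col4a2 (Pearson r 0.99), followed by Igfbp7, Tpst1, Mageh1 and Lims2 (0.97, 0.97, 0.97 and 0.96).

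**Figure D4:**
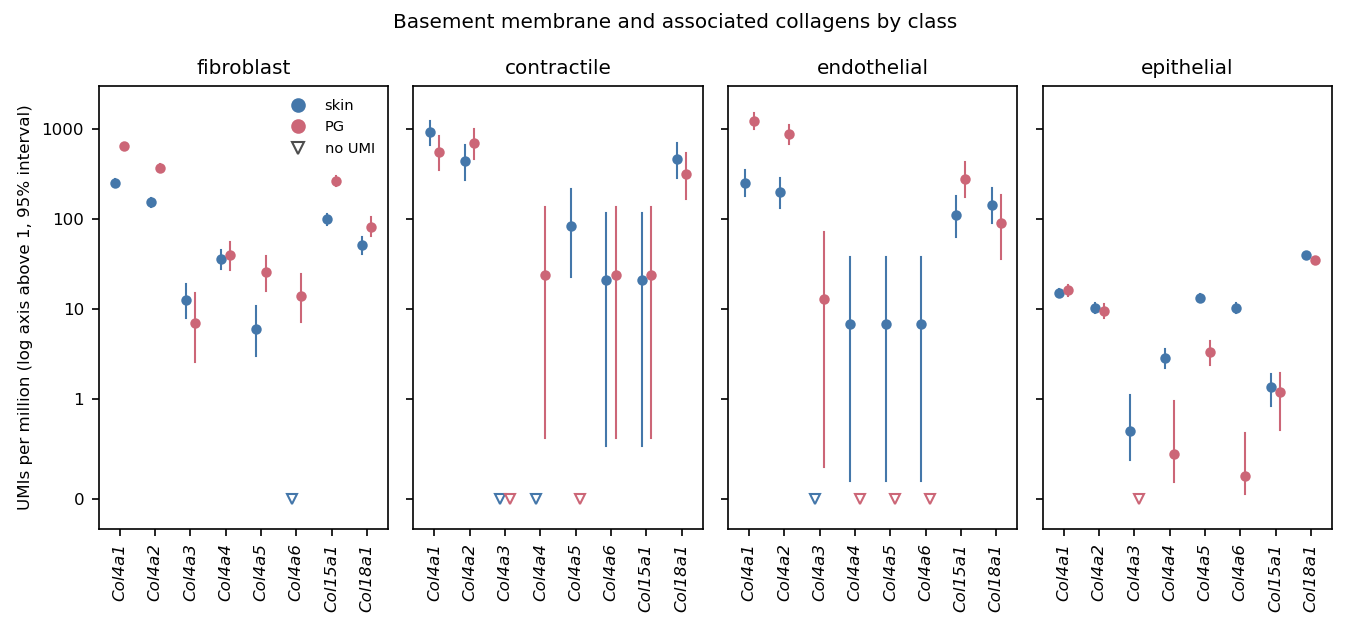
CPM (log axis above 1) of the 6 type IV genes, Col15a1 and Col18a1 in fibroblasts, contractile, endothelial and epithelial cells of skin and PG, with 95% intervals of counting error and open triangles where no UMI was found. Col4a1 and Col4a2 of PG lie above those of skin in fibroblasts and endothelial cells, and in epithelial cells Col4a1 and Col4a2 nearly coincide while Col4a5 and Col4a6 of skin lie above those of PG.

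Contractile cells, a class of smooth muscle cells and pericytes, had few cells. Col4a1 was at 920 CPM in skin and 553 in PG, Col4a2 at 439 and 698 CPM and Col18a1 at 460 and 313 CPM, and none of the 3 ratios excluded equality. Of the 10 collagen genes tested, 2 were past 2-fold toward PG, against 9.04% of 1493 genes, and 4 toward skin, against 7.97%. The calls toward skin were Col1a1, Col1a2, Col3a1 and Col6a3, and those toward PG were Col6a1 and Col6a2. Of the 241 UMIs of Col1a1, Col1a2 and Col3a1 in the skin class, 92.9% came from 2 of the 21 cells, and 1 cell held 100 of the 105 Col1a1 UMIs. Without cells of 5 or more such UMIs, 3 of 7 genes were past 2-fold in either direction (16.7% of all genes), 3 of 6 were with a minimum of 30 UMIs (25.7%), and 15 of 23 were with clusters in place of the markers (22.8%). The 1 skin cell that met the pericyte markers held 19 of the 44 Col4a1 UMIs and 11 of the 21 Col4a2 UMIs of the class. Without it Col4a1 of skin was at 549 CPM, and Col3a1 was no longer past 2-fold toward skin (log2 -0.96, -1.72 to -0.23). Col4a2 of skin was then at 220 CPM and past 2-fold toward PG (log2 1.67, 0.59 to 2.87). The 12 PG cells that met the same markers, with 13 Col4a1 and 11 Col4a2 UMIs, were kept. The Col4a2 call thus sets a skin class without pericytes against a PG class with them. In that setting, added after the cell had been seen, 6 of 9 genes were past 2-fold in either direction, against 17.4% of all genes. By the markers of smooth muscle, 14 skin cells and 6 PG cells could be set apart, with 500 and 544 CPM of Col18a1, on 16 and 5 UMIs.

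The epithelial cells had a collagen set of their own, led by Col17a1. In the whole epithelial class it was at 842 CPM in skin and 105 CPM in PG, and in basal keratinocytes, which sit on the basement membrane, it was at 1493 CPM (1467 to 1519) and 199 CPM (186 to 213). Basal cells of skin thus had 7.50-fold more (log2 -2.91, -3.01 to -2.81). Krt15, a marker of the basal gate, was itself at 7593 CPM in basal cells of skin and 1501 CPM in those of PG. Whether the basal cells compared were of like kinds was not tested. After thinning, 69.2% of basal cells in skin and 18.1% in PG had a UMI of Col17a1, and 87.3 and 40.7% unthinned. The background was 1.99% of immune cells in skin and 0.174% of fibroblasts in PG, different classes whose values cannot be compared with each other. Fibroblasts held 55 Col17a1 UMIs in 922 cells of skin and 1 in 574 cells of PG. The median depth was 2472 and 2719 UMIs in basal cells, 1806 UMIs in skin immune cells and 1333 UMIs in PG fibroblasts.

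For 5 other collagens of basal cells, Col7a1, Col16a1, Col18a1, Col4a1 and Col4a2, the levels of the 2 libraries lay nearer each other. Col7a1, which makes the anchoring fibrils, was at 52.7 CPM in basal cells of skin and 42.6 CPM in those of PG. Col16a1 was at 74.4 and 68.4 CPM and Col18a1 at 65.6 and 66.9 CPM. Col4a1 was at 27 and 24.5 CPM and Col4a2 at 17.6 and 15.5 CPM. None of these 5 was past 2-fold, and 4 of the intervals included equality, all but that of Col7a1 (log2 -0.31, -0.56 to -0.06), whose ratio turned to 0.026 with clusters in place of the markers.

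The bases before the starts of Col7a1 and Col17a1 are given because both encode proteins of the same junction, Col17a1 being past 2-fold and Col7a1 not. As for Col3a1, they are read from GRCm38 up to the nearest annotated exon, which for Col17a1 begins 52 bases before the RefSeq start, and the letters searched above are in capitals.
Col7a1, plus strand, chr9:108953466-108953585: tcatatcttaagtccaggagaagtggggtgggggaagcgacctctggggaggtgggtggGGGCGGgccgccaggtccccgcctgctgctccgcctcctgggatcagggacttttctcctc
Col17a1, minus strand, chr19:47692095-47692214: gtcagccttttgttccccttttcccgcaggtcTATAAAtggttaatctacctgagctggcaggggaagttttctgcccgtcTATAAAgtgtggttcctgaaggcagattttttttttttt
The stretch of Col17a1 held the TATAAA letters at 2 places, and that of Col7a1 the GGGCGG letters at 1.

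Other basal collagens were higher in skin. Col4a5 was at 19.5 and 5.16 CPM (log2 -1.92, -2.62 to -1.29) and Col4a6 at 17.5 and 0.449 CPM (152 and 2 UMIs). Col12a1 was at 36.0 and 16.8 CPM and Col23a1, a transmembrane collagen, at 23.2 and 11.4 CPM, both just past 2-fold. Col8a1 and Col8a2, which encode the chains of the short-chain type VIII, had 53 and 55 UMIs in skin basal cells and none in PG, where 0 UMIs allow a level of up to 0.673 CPM. With PG set at that limit they were 9.05-fold and 9.39-fold higher in skin, which leaves out the counting error of the skin UMIs. In the opposite direction, Col9a3 was past 2-fold toward PG on 3 and 9 UMIs.

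Of 25 collagen genes tested in basal cells, 1 was past 2-fold toward PG, against 16.1% of all 13467 genes, and 15 toward skin, against 17.1%. Among these 15 were Col1a1, Col1a2, Col3a1, Col4a4, Col5a2, Col6a1, Col6a3, Col12a1 and Col27a1, all highest in fibroblasts of both libraries. With every UMI of the fibroblast genes Lum, Dpt, Clec3b and Mfap5 counted as free RNA, free RNA was at most 17.8% of basal UMIs in skin and 20.2% in PG. Doublets with fibroblasts or misplaced cells would raise these values, and their part was not tested. In hair follicle matrix cells of skin, Lum and Dpt were at 1.84 and 3.05% of their free RNA level, on 2 and 4 UMIs, while Dcn was at 60.6%. In the whole epithelial class 1 of 31 genes was past 2-fold toward PG, against 15.4% of 15411 genes, and 15 of 31 toward skin, against 22.6%. Among the 15 of the epithelial class were 8 collagens that were highest in fibroblasts of both libraries (Col1a1, Col1a2, Col3a1, Col4a4, Col5a2, Col6a1, Col12a1 and Col27a1). Col1a1 was at 60.5 and 9.94 CPM there, 16.2 and 14.8% of the free RNA level, and the fibroblast genes Lum, Dpt, Clec3b and Dcn stood at 14.4, 17.6, 22.1 and 32.1% of theirs in skin and at 12.1, 17, 33.5 and 19.7% in PG. In skin, 85 of the 7094 epithelial cells held 85.1% of the 3754 UMIs of Col1a1, Col1a2 and Col3a1, and in PG 25 of 3639 cells held 72.1% of 469 UMIs. In either direction 16 of 31 collagen genes were past 2-fold in the epithelial class, against 38.0% of all genes. Across 13 alternatives 12 to 18 genes were past 2-fold, of a number tested that changed between them. Subtracting free RNA and leaving out these few cells were among the alternatives. Col17a1 of the epithelial class was recomputed under 11 alternatives, both of these settings among them, with log2 ratios from -3.06 to -2.88. The part of free RNA and of these cells in the call of any other gene was not tested.

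Within the epithelium the junction collagens were lower outside the basal layer. In skin, Col17a1 was 5.36-fold higher in basal than in suprabasal keratinocytes (1493 and 278 CPM), Col7a1 13.2-fold (52.7 and 3.99 CPM), Col16a1 21.7-fold (74.4 and 3.42 CPM) and Col18a1 17.2-fold (65.6 and 3.80 CPM). In PG, Col17a1 was 9.36-fold higher in basal cells (199 and 21.3 CPM), whereas Col7a1 was at 42.6 and 31.9 CPM with an interval that included equality (log2 -0.42 to 1.40), on 12 UMIs in 94 suprabasal cells. Of the gated PG groups, Col9a3 had its highest level in suprabasal cells, 18.6 CPM on 7 UMIs.

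Sebocytes (SEB), the lipid-producing cells, had the lowest collagen share of the 3 gated PG keratinocyte and SEB groups, 0.008% of their UMIs, against 0.0125% in suprabasal and 0.0514% in basal cells. In PG SEB, Col17a1 was at 12.9 CPM, 15.5-fold below basal cells, Col7a1 at 1.84 CPM, 23.2-fold below, Col16a1 at 0.787 CPM, 86.9-fold below, and Col18a1 at 4.98 CPM, 13.4-fold below. The Col16a1 level is no higher than the limit of 3 UMIs that 0 UMIs allow in this class, so its fold is poorly known. The basal gene Krt15 was at 17.2% of its free RNA level in PG SEB, and the part of free RNA in these levels was not tested. Col1a1, Col1a2 and Col3a1 were at 9.18, 7.61 and 12.1 CPM in SEB, with intervals of the ratio to basal cells that included equality. In skin only 15 SEB passed the gate, with 37 collagen UMIs in all, 15 of them of Col3a1. Hair follicle matrix cells of skin had 22.5 CPM of Col17a1, 66.4-fold below basal cells, and no UMI of Col4a1, where 0 UMIs allow up to 1.61 CPM. Among the genes most like Col17a1 over the same 10 points were Dapl1, Krt15, Serpinb5 and Plet1 (Pearson r from 0.97 to 0.96), of which Krt15 was itself a marker of the basal gate. For Col1a1 they were Islr, Rian, Antxr1, Col1a2 and Lrrc17 (0.97 to 0.94).

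**Figure D5:**
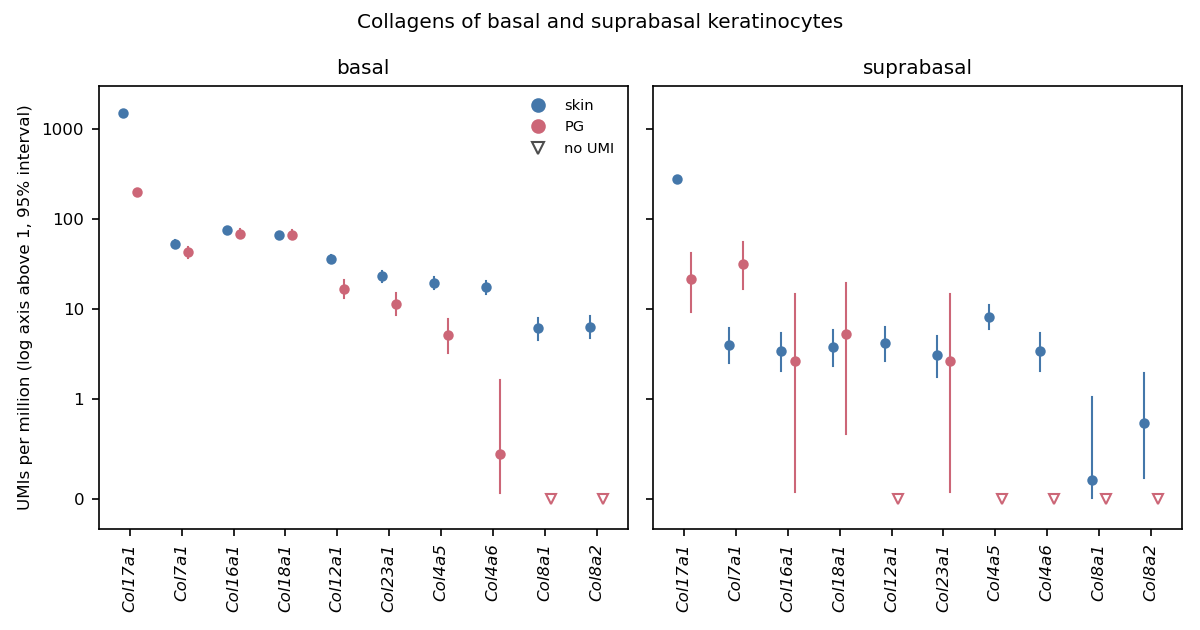
CPM (log axis above 1) of 10 collagen genes in basal and suprabasal keratinocytes of skin and PG, with 95% intervals of counting error and open triangles where no UMI was found. In basal cells Col17a1 lies at 1493 and 199, Col7a1, Col16a1 and Col18a1 nearly coincide, and Col4a6, Col8a1 and Col8a2 are near or at no UMI in PG.

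Outside the 4 classes, the 201 immune cells of skin held 21 UMIs of Col27a1 (51.8 CPM) and 20 of Col16a1 (49.4 CPM), while the 178 immune cells of PG held none of either, where 0 UMIs allow up to 8.15 CPM. In fibroblasts of skin, Col27a1 was at 8.23 CPM. The remaining collagens were scarce in immune cells, with 70 collagen UMIs in skin and 34 in PG in all.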

How the data were processed

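The authors deposited raw UMI counts per gene and barcode, written by Cell Ranger 4 (build mm10 by the submitters' processing notes), for every barcode of the list, not normalized and not filtered. The libraries held 37675226 UMIs in skin and 26288071 in PG. Counts were summed over the cells of a class and scaled to CPM. Level intervals are exact Poisson, ratios conditional binomial and shares exact Clopper-Pearson, all at 95%; a group with 0 UMIs was given the limit of 3 UMIs. Cells are not replicates, so no p-value was computed. Intervals and calls were tested on fibroblast sums simulated with counting error alone, which does not cover an uneven spread of UMIs over cells.

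The exclusive gate was set after the cells had been seen and was the only treatment of doublets, with doublet scores as an alternative. Subclusters used 1500 variable genes, 15 components and leidenalg 0.10.2 at resolution 0.5. Free RNA was taken from barcodes with at most 100 UMIs. Named genes were all members, described with values from 10 UMIs over the 4 classes, genes of 3 role lists (processing, receptors, turnover), the 5 genes most like each of 3 members by log2(CPM + 10), and leading genes of subclusters, the last chosen after their values were seen. Some genes that these rules name are not reported here. Alternatives were other gates, clusters, depth and mitochondrial limits, doublet scores, free RNA subtraction, scaling, UMI minimums and left-out cells. The members, lists, markers and alternatives were chosen with earlier results of these data known. Gene positions came from GENCODE and promoter bases from RefSeq, both on GRCm38. Python 3.11.15, numpy 2.4.6, scipy 1.17.1, pandas 2.3.3, scanpy 1.11.5 and matplotlib 3.10.9 were used.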

Additional observations from a re-analysis of the deposited data

Results flagged for a closer look

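Collagen genes whose epithelial level stood on opposite sides of the fibroblast level in the 2 libraries were Col23a1, Col4a5 and Col4a6, with intervals that excluded equality in both. For Col23a1 the log2 ratio of epithelial cells over fibroblasts was 0.87 in skin and -1.41 in PG. For Col4a5 it was 1.13 in skin and -2.95 in PG. Col4a6 of skin had 240 UMIs in epithelial cells and 0 in fibroblasts. With the fibroblasts set at the limit of 3 UMIs over the class, its log2 ratio was 2.62. In PG it had 3 and 12 UMIs, a log2 ratio of -5.95. With 1 library per tissue the difference between the libraries was not tested.

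The 514 skin cells that met no gate held 3 collagens at a counted level above that of every gated class. Col23a1 was at 96.8 CPM there (103 UMIs in 55 cells), with 27.4 CPM in the highest gated class, endothelial cells. Col11a1 was at 28.2 CPM (30 UMIs in 20 cells), with 14.8 CPM in fibroblasts, and Col13a1 at 16 CPM (17 UMIs in 13 cells), with 6.84 CPM in endothelial cells. In the free RNA of skin these 3 genes were at 5.44, 1.23 and 0.351 CPM. The endothelial levels rest on few UMIs. In the contractile cells of skin 0 UMIs allow up to 62.7 CPM, so a higher level of Col11a1 or Col13a1 there is possible.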

How the results depend on the processing

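The numbers of genes highest in fibroblasts (15 to 22 in skin and 16 to 21 in PG) and past 2-fold in fibroblasts (11 to 17) and epithelial cells (12 to 18) stayed within 1.5-fold under every alternative that gave a value. Clusters in place of the gate left no PG endothelial cluster, so they gave no PG ranking and no endothelial comparison. They also left several clusters of both libraries in no class, the largest of PG (836 cells) among them. No paired analysis was possible because there is 1 library per tissue. In contractile cells, 15 of 23 genes were past 2-fold with clusters, 3 of 6 at a minimum of 30 UMIs and 3 of 7 without cells rich in Col1a1, Col1a2 and Col3a1. In endothelial cells, 7 of 22 were with no minimum. The shares over all genes for these settings are given above with the 2 classes.

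The fibroblast share of collagen UMIs in skin was 50.8% with a stricter gate, 55.5% with a looser one, 63.0% with clusters, 58.9% without high doublet scores, 49.0% at 1000 genes and 2000 UMIs and 55.6% at 5% mitochondrial UMIs. In PG, in the same order, it was 63.5, 68.7, 75.7, 70.1, 43.6 and 70.1%. The epithelial share in skin was 37.0% with the stricter gate, 29.8% with clusters, 35.3% without high doublet scores, 43.2% at 1000 genes and 2000 UMIs, 36.9% at 5% mitochondrial UMIs and 29.7% with free RNA subtracted. In PG it was 12.8, 22.9, 49.5, 22.8 and 17.3% for the last 5 of these. In PG the larger share was thus epithelial at the higher depth minimum; the median PG fibroblast had 1333 UMIs.

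Of 131 recomputed ratios of single genes, 104 stayed within the interval of the reported value, 26 moved out of it with the same sign, and 1 reversed: Col7a1 in basal cells was 0.026 (log2) with clusters. The log2 ratio of Col1a1 in fibroblasts was -0.90 at 1000 genes and 2000 UMIs. The cause was not tested. The small number of cells (21 to 68) limits the contractile and endothelial classes, where 10 and 5 collagen genes could be tested.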
